A study of Arabidopsis thaliana with 8 samples.

Results

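The stretch described here comprises the tiles of plates TA64 to TA99, the last 36 plates of the TA series on an array that tiles chromosome 4 of Arabidopsis thaliana. Of its 3456 tiles, 3330 carried a value on all arrays, which is 15.6% of the 21296 measured tiles. Its members were chosen by plate number, but the limits of the stretch were selected on the measured log ratios themselves: it begins after TA62 and TA63, the last TA plates whose medians, -1.96 and -1.53, were under -1. The level of the stretch and its contrast with other stretches are therefore given as descriptions, without a test. The array carries 231 plates of tiles in all.

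Chromatin from whole 10 day old seedlings of the accession C24, grown in liquid medium without treatment, was immunoprecipitated with an antibody against histone H3 dimethylated at lysine 4 (H3K4me2). Precipitated DNA (IP) and input DNA were labelled with Cy3 and Cy5 and hybridised together in 4 replicates, I to IV. A replicate used 50 µg and was measured in both dye orientations, on 2 arrays. Whole seedlings mix many cell types, and nothing in the labels tells whether separate cultures were used, so that p-values measure the spread between these samples, which may be technical. All values are deposited log ratios of the channels minus the median of the array. The sources used here give neither the base of the logarithm nor the direction of the ratio, and tiles are therefore called above or below the array median and not enriched or depleted.

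H3K4me2 is one of the methylation states of lysine 4 of histone H3, written by SET domain methyltransferases of the Trithorax type and removed by demethylases of the LSD1 type. In Arabidopsis it is a mark of genic euchromatin and is scarce over the transposon-rich heterochromatin around the centromere. Tiles were not linked to genes or positions here, and the order used below is that of the tile IDs (plate, row, column).

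Low and high tiles alternated over short distances throughout the stretch, and no plate was uniformly one or the other (the map of all tiles). The median of the stretch was -0.03, 0.00, -0.01 and -0.01 in replicates I to IV, a mean of -0.01 ± 0.02 (SD, n = 4). It therefore lay at the median of the array within the spread between replicates. The middle part of the distribution ran from -0.79 ± 0.02 at the 25th percentile to 0.86 ± 0.09 at the 75th. Its lower tail was shorter than that of the array as a whole: the 5th percentile was -2.10 ± 0.01 in the stretch and -2.89 ± 0.10 over all tiles, while the 95th percentiles were 1.84 ± 0.08 and 1.81 ± 0.07.

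**Figure D1:**
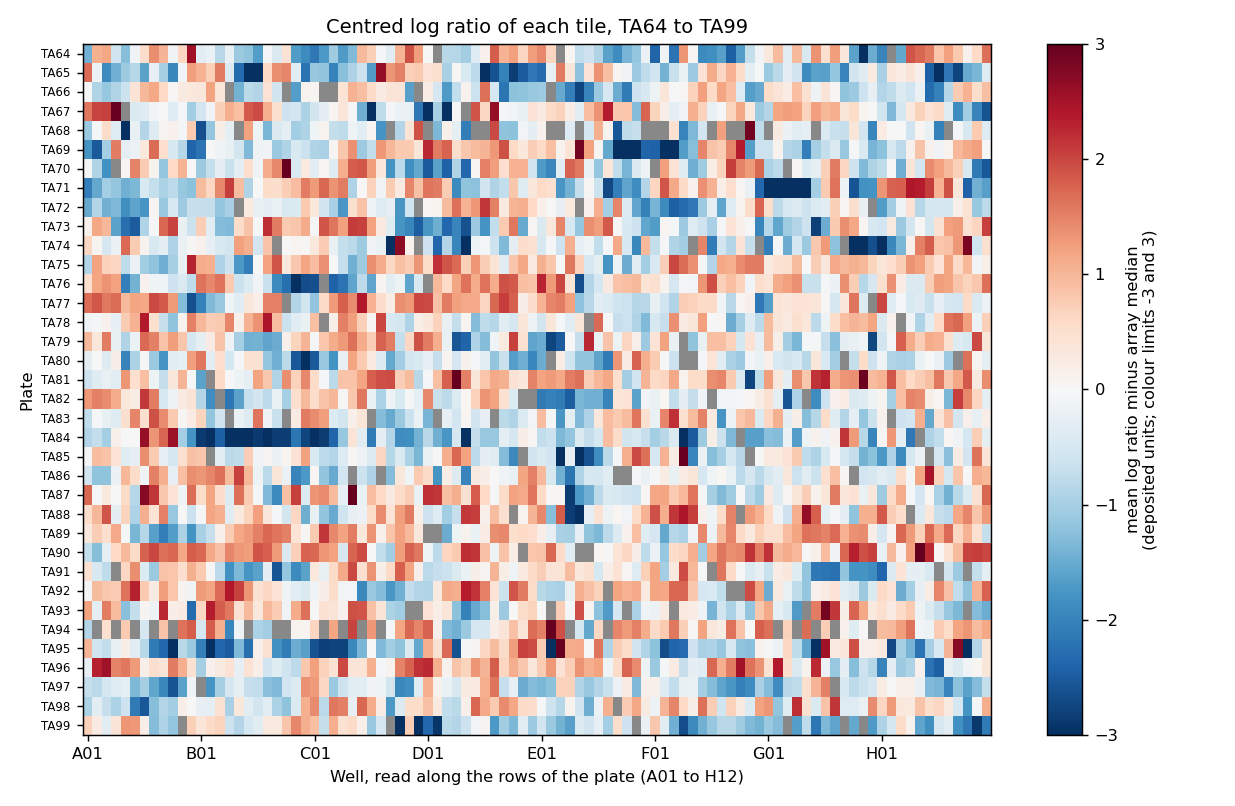
Mean log ratio minus the array median for each tile of TA64 to TA99, with plates down the page, wells along the rows of the plate from left to right, and tiles without a value in grey. Red tiles lie above and blue tiles below the array median; the long blue bar on TA84 is the run of 18 tiles described in the text.

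With limma's moderated test of each tile against 0 (Benjamini-Hochberg adjusted p under 0.05 over all 21296 tiles), 1333 tiles of the stretch were above the array median and 1318 below it. These are 40.0% and 39.6% of its tiles, beside 42.2% above and 42.3% below over the whole array. The rule that set the stretch used the same contrast, so nothing is read from these counts. The split depended on the choice of 0. Without centring, 625 tiles (18.8%) were above 0 and 1864 (56.0%) below, beside 20.5% and 54.9% over the array, so that 25.1% of the called tiles of the stretch were above, against 50.3% with the array median as 0. Replicates I and III resembled each other, as did II and IV, and with these pairs as a random block 1218 tiles were above and 1185 below (36.6% and 35.6%, beside 38.9% and 39.1% over the array). The fit with the block estimated a correlation of 0.7 within such pairs. The 4 values were therefore not independent, and the fit without the block, which treats them as independent, gives p-values that cannot be taken as exact. With the block fewer tiles passed, but the adjusted p of the named highest and lowest tiles was smaller. For TA94E02 the standard error was 0.178 with the block and 0.099 without it. Its limma adjusted p was 7.6e-09 with the block and 2.4e-07 without it. The array titles carry unexplained numbers, of which I and II share some, and III and IV others. Within I and II, 1156 tiles were above and 1120 below (beside 37.2% and 37.6% over the array), and within III and IV, 1144 and 1093 (beside 36.5% and 37.0%), in fits where limma took 1 common spread for all tiles. Over the tiles of the stretch, r was 0.977 for I with III and 0.980 for II with IV, and from 0.920 to 0.931 in the other pairs.

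Extreme values were counted at fixed levels. Of the measured tiles of the stretch, 188 (5.65%) had a mean under -2, beside 13.4% over the array. A mean over 2 was reached by 99 tiles (2.97%), beside 2.49% over the array. A mean over 1 was found in 709 tiles (21.3%, beside 22.3%) and a mean under -1 in 647 (19.4%, beside 26.3%). The stretch thus held a smaller share of deep low tiles than the array and similar shares of high ones, as values of these arrays and not as a test.

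Plate medians varied between -0.82 and 1.07, with an SD of 0.45 over the 36 plates (the plot of plate medians). In all 4 replicates, 15 plates had a median above 0 and 15 a median below 0, and the other 6 changed sign between replicates. The SD of tiles within a plate was 1.11, more than 2 times the SD between plates, so most of the variation lay inside plates. No plate of the stretch had a median under -1, which follows from its start after the last TA plates that did.

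The highest plate was TA90, with medians of 0.89, 1.24, 0.92 and 1.21 in replicates I to IV. Every replicate of TA90 was thus well above 0, although II and IV lay above I and III. On it 68 of 93 tiles (73.1%) were above the array median by the limma test and 11 (11.8%) below, beside 42.2% and 42.3% over the array. No tile of TA90 had a mean under -2. TA81 followed with medians of 0.74, 0.84, 0.80 and 0.80, and 71 of its 95 tiles (74.7%) above. The highest and lowest plates were picked by their medians, so nothing is read from their counts of called tiles. TA94 had medians of 0.66, 0.70, 0.65 and 0.88, and also lacked values for 19 of its tiles, the most of any plate of the stretch.

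The lowest plate was TA84, with medians of -0.93, -0.83, -0.93 and -0.61. On TA84 67 of 94 tiles (71.3%) were below the array median and 11 (11.7%) above, beside 42.3% and 42.2% over the array. TA99, the last plate of the stretch, had medians of -0.57, -0.89, -0.72 and -0.85, and TA95 had -0.83, -0.75, -0.69 and -0.76. These low plates did not share a pattern. TA95 had the widest spread of tiles of any plate in the stretch, an SD of 1.497, with 22 tiles under -2 and 4 over 2, whereas TA99 had 9 tiles under -2 and none over 2.

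**Figure D2:**
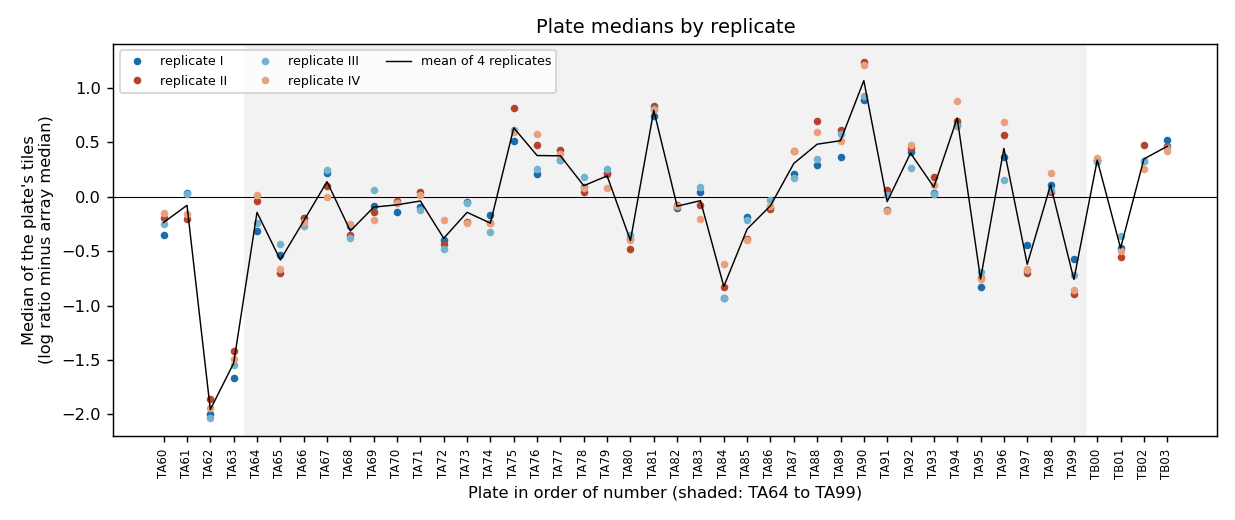
Median of each plate's tiles (log ratio minus the array median) in each replicate, as points, and the mean of the 4 replicates, as a line, for plates TA60 to TB03 in order of number; the shaded area is TA64 to TA99. TA90 is the highest at 1.07 and TA84 the lowest of the shaded plates at -0.82, while TA62 and TA63 before the stretch lie at -1.96 and -1.53.

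The start of the stretch was a step between plates. TA64, the first plate inside, had medians of -0.31, -0.04, -0.24 and 0.01, against -1.67, -1.42, -1.55 and -1.49 on TA63 just outside, a difference of 1.39 ± 0.08 (SD, n = 4). The tiles themselves showed no single break at the limit. The last tiles outside were TA63H11 at 0.27 and TA63H12 at -0.83, and the first tiles inside were TA64A01 at -1.45, TA64A02 at 1.07 and TA64A03 at 1.15. At the far end, TA99 lay below TB00, the first plate of the TB series, by 1.10 ± 0.15 (difference -1.10). Its last tiles, TA99H09 to TA99H12, were at -1.81, -2.14, -2.90 and -2.09, and the first TB tiles, TB00A01 and TB00A02, were at -0.36 and 0.18.

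Steps of that size also occurred inside the stretch. Between adjacent plates the median size of the step was 0.39, and 5 of 35 steps exceeded 1. The largest fall was from TA94 to TA95, where the median changed by -1.48 ± 0.12, and the largest increase was from TA95 to TA96, at 1.20 ± 0.26. TA80 to TA81 gave an increase of 1.20 ± 0.09. Of the 35 steps, 28 had the same sign in all replicates.

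By blocks of 12 plates the median was somewhat higher towards the end of the stretch. Yet TA95, TA97 and TA99, near that end, were among its lowest plates, with mean medians of -0.76, -0.62 and -0.76. The median was -0.14 ± 0.01 on TA64 to TA75, -0.01 ± 0.03 on TA76 to TA87 and 0.14 ± 0.04 on TA88 to TA99, in that order in every replicate. The share of tiles above the array median was 36.3%, 39.4% and 44.4%, beside 42.2% over the array. The number of tiles under -2 was 87, 53 and 48. These blocks of 12 plates were laid out once the values were known. A single plate moved these medians by less than the differences between adjacent blocks, but by a sizeable part of them. Without TA90 the last block had a median of 0.05, and without TA84 the middle block had one of 0.06.

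The highest tile was TA94E02, with 4.90, 4.94, 4.58 and 4.80 in replicates I to IV (mean 4.80 ± 0.16, SD, n = 4; limma adjusted p = 2.4e-07). All replicates were alike, and 1 tile of the whole array had a higher mean. Its neighbours TA94E01 and TA94E03 were at 1.51 and 1.93, so that it stood on a local maximum. TA87C05, at 3.04, 3.83, 3.10 and 3.83 (limma adjusted p = 9.2e-07), stood alone instead, between TA87C04 at -0.25 and TA87C06 at -0.19.

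TA85F04 was the least even of the high tiles. It had 2.94, 4.08, 2.35 and 3.99 (mean 3.34 ± 0.84; limma adjusted p = 1.6e-05), with II and IV above I and III by 1.39. It lay between TA85F03 at 0.21 and TA85F05 at -1.95. TA70B10 had 2.90, 3.37, 2.62 and 3.33, between 1.43 and -0.45 at its neighbours. TA67A04 had 3.07, 2.93, 3.14 and 2.996, and formed a group of high tiles with TA67A02 and TA67A03, whose means were 2.04 and 2.05. The next tile, TA67A05, had no value.

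The lowest tile was TA99C10, with -4.55, -4.25, -4.98 and -4.20 (mean -4.49 ± 0.36; limma adjusted p = 2.5e-07), and 11 tiles of the array were lower. The tile before it had no value and the tile after it, TA99C11, was at 0.73. TA67D03 followed at -3.72, -3.96, -3.89 and -3.84 (limma adjusted p = 2.4e-07), between -0.99 and 0.03. TA67C07 was at -3.79, -4.01, -3.68 and -3.81, between -1.45 and -0.75. Both lay on TA67, a plate with a median of 0.14, inside short groups of tiles below the array median: TA67C06 to TA67C08, and TA67C12 to TA67D03, where TA67C12 was at -2.15 and TA67D01 at -3.22.

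The other low tiles lay inside longer patches. TA69E11 had -3.67, -3.80, -3.45 and -3.97, with neighbours at -3.27 and -2.40. TA71G03 had -3.69, -3.72, -3.50 and -3.97, with neighbours at -3.02 and -3.57. Both belonged to groups of consecutive tiles under -2, TA69E09 to TA69F03 with 7 tiles and TA71F12 to TA71G05 with 6.

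Tiles under -2 formed 105 groups of consecutive tiles, of which 71 were single tiles. The longest held 15 tiles, TA84B01 to TA84C03, and the next held 7, at TA65D07 to TA65E01 and TA69E09 to TA69F03. The plates TA95 and TA84 had 22 and 20 such tiles, 22.3% of the 188, and 5 plates had none. Tiles over 2, which were fewer, had 63 single tiles among 79 groups and no group longer than 3. TA90 had 12 of the 99. Single tiles made up 67.6% of the groups under -2 and 79.7% of those over 2. At levels of -1 and 1 this order turned, with 59.6% of the groups under -1 and 51.1% of those over 1. Groups were not compared at equal shares of tiles.

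Extreme tiles nevertheless tended to have neighbours on the same side. For the 95 tiles over 2 with a value on both sides, the mean of their neighbours had a median of 1.16. For the 177 such tiles under -2 it was -1.70. Isolated extremes were the smaller number: 16 tiles over 2 had both neighbours under 1, and 23 tiles under -2 had both neighbours over -1.

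Consecutive tiles past the limma threshold formed 445 runs above the array median and 476 below it (the plot of run lengths). A tile without a value ended a run. The mean length was 2.996 tiles above and 2.77 below, and single tiles made up 34.6% and 43.7% of the runs. This order turned with the choice of 0: the mean lengths were 1.82 above and 3.94 below without centring, and 1.97 above and 4.05 below with centring on the mode. Of the tiles above, 47.7% lay in runs at least 5 tiles long, and of the tiles below, 44.9%.

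**Figure D3:**
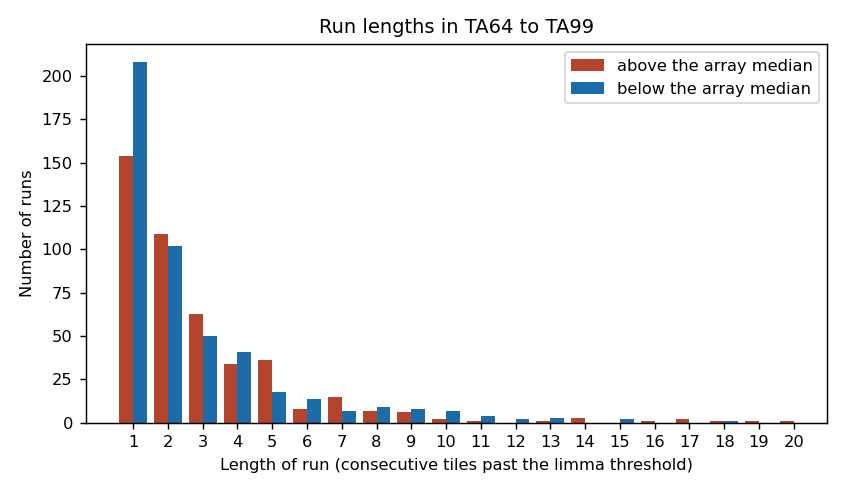
Number of runs by length in tiles for consecutive tiles above (red) and below (blue) the array median by limma's test in TA64 to TA99. Single tiles are the most frequent, with 154 runs above and 208 below, and the longest runs have 20 tiles above and 18 below.

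Both of the longest runs above the median lay on TA81. TA81D02 to TA81E09, with 20 tiles, had means over its tiles of 1.04, 1.23, 1.13 and 1.22 in replicates I to IV. Its highest tile was TA81D04 at 3.03, and the tiles bordering it were at -0.03 and -1.05. TA81G04 to TA81H10, with 19 tiles, had means of 1.26, 1.48, 1.26 and 1.44, and was bordered by -0.30 and 0.28.

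The longest run below the median was TA84A11 to TA84C04, with 18 tiles and means of -2.70, -2.47, -2.79 and -2.45. It began sharply: TA84A10, the tile before it, was at 2.60, 2.59, 2.63 and 2.49, and TA84A11 at -1.14, -0.97, -1.06 and -0.90. It ended over a few tiles, with TA84C03 at -2.40, TA84C04 at -1.13 and TA84C05 at 0.39. A further run of 15 tiles, TA84C06 to TA84D08, followed it after that single tile, with a mean of -1.28 ± 0.05 (SD, n = 4). The other run of 15 tiles, TA70H10 to TA71A12, crossed a plate boundary and had a mean of -1.26 ± 0.21.

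Adjacent tiles could differ by far more than the replicates did. Of 3182 adjacent pairs on 1 plate, 206 (6.47%) differed by more than 2. The largest step was between TA74C09, at -3.38, -3.55, -3.53 and -3.93, and TA74C10, at 2.32, 2.66, 2.69 and 3.03, a difference of 6.27 ± 0.51 (SD, n = 4). The groups of 4 values are far apart. TA95 held 3 of the 5 largest steps. There TA95E02 at -3.25 was followed by TA95E03 at 2.99, TA95G06 at -3.66 by TA95G07 at 2.52, and TA95H09 at 2.73 by TA95H10 at -3.33.

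At plate boundaries no such step was seen. Across the 35 boundaries with a value on both sides no step exceeded 2, the largest was 1.55, and the median step of 0.50 lay beside 0.62 within plates. Tile pairs that met at a plate boundary had an r of 0.783 over these 35 boundaries, against 0.595 over adjacent tiles within plates, both from the mean of the replicates.

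Likeness between tiles decayed quickly with distance (the plot of correlation by distance). Pearson's r across adjacent tiles was 0.57, 0.61, 0.58 and 0.59 in replicates I to IV, a mean of 0.59 ± 0.02 over 3217 pairs. At distances of 2, 5 and 12 tiles it was 0.39 ± 0.02, 0.16 ± 0.01 and 0.06 ± 0.01, and at 96 tiles, a full plate, it was -0.01 ± 0.01. These values describe tiles that share arrays and are not independent. When wells were read down the columns of the plate, the r of successive tiles was 0.07 ± 0.01, so the likeness followed the rows of the ID order.

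**Figure D4:**
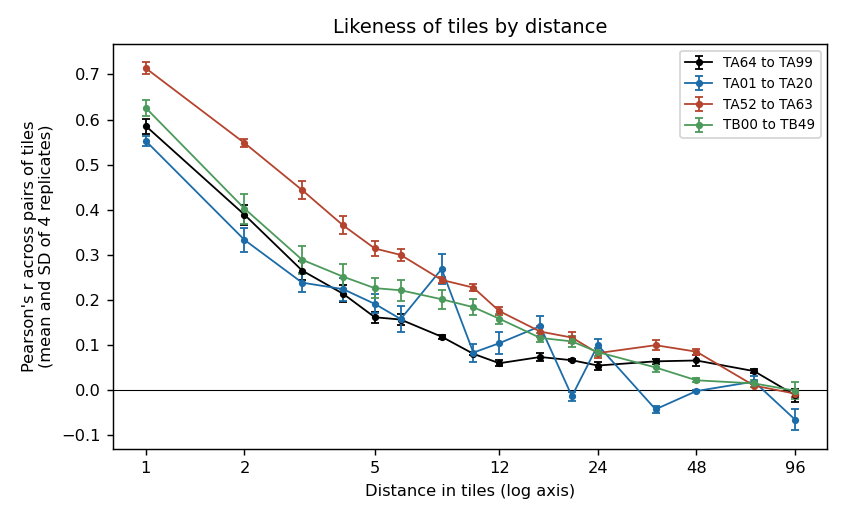
Pearson's r across pairs of tiles against their distance in tiles (log axis), as mean and SD of the 4 replicates, for TA64 to TA99 and 3 other stretches. TA64 to TA99 lies at 0.59 for adjacent tiles and at 0.06 for tiles 12 apart, against 0.18 for TA52 to TA63 at that distance.

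Set beside similar stretches, TA64 to TA99 was intermediate in level. Its median exceeded that of the plates just before it, TA52 to TA63 (-0.94 ± 0.02), by 0.93 ± 0.02 (SD, n = 4). It was lower than TB00 to TB49 (0.39 ± 0.02), which follow in the numbering, with a difference of -0.40 ± 0.03. Each had 1 sign in 4 of 4 replicates. Against the early plates TA01 to TA20 (0.13 ± 0.04) the difference depended on the measure: it was -0.14 ± 0.02 between medians and 0.08 ± 0.04 between means, each with 1 sign in 4 of 4 replicates. Tiles under -2 made up 5.65% of TA64 to TA99, against 11.1% of TA01 to TA20, 23.9% of TA52 to TA63 and 2.83% of TB00 to TB49. All these stretches were delimited with the values known, so the differences give sizes only.

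Runs of low tiles were shorter than in the plates before it, in the same descriptive sense. Runs below the array median had a mean length of 2.77 tiles in TA64 to TA99 and 6.49 in TA52 to TA63, with longest runs of 18 and 70 tiles. In TB00 to TB49 the mean was 2.63, and in TA01 to TA20 it was 2.90. The shares of tiles called below differed as well. They were 39.6% in TA64 to TA99, 69.9% in TA52 to TA63, 29.1% in TB00 to TB49 and 38.9% in TA01 to TA20. Runs above the median had a mean length of 2.996 tiles, against 4.05 in TB00 to TB49, 2.89 in TA52 to TA63 and 3.13 in TA01 to TA20. Tiles called above made up 40.0% of TA64 to TA99, 53.4% of TB00 to TB49 and 45.3% of TA01 to TA20. In TA52 to TA63 they were 205 of 1141. Run lengths were not compared at equal shares of called tiles, so a difference in run length beyond that in level was not tested. At a distance of 12 tiles, r was 0.06 ± 0.01 in TA64 to TA99, 0.18 ± 0.01 in TA52 to TA63, 0.16 ± 0.01 in TB00 to TB49 and 0.10 ± 0.02 in TA01 to TA20.

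Replicates differed by plate in a pattern that followed the plate number. The median over a plate's tiles of IV minus III was above 0 on 17 of 18 even plates and on 2 of 18 odd plates (the plot of replicate differences), with means of 0.13 ± 0.09 and -0.13 ± 0.11 (SD over 18 plates each). For II minus I the counts were 11 of 18 and 9 of 18. Such an alternation was not particular to this stretch. In TB00 to TB49 IV minus III was above 0 on 20 of 25 even and 6 of 25 odd plates. In TA52 to TA63 it was so on 6 of 6 and 3 of 6. In TA01 to TA20 the order was reversed, at 0 of 10 and 8 of 10. For II minus I the counts there were 23 and 6 of 25, 6 and 3 of 6, and 2 and 8 of 10. The plate medians of TA64 to TA99 themselves averaged 0.05 ± 0.46 on even and -0.02 ± 0.46 on odd plates, so in this stretch the level did not differ between them beyond its spread. In the other stretches even and odd plates lay further apart. They averaged -0.18 ± 0.32 and 0.34 ± 0.39 in TA01 to TA20, and 0.53 ± 0.38 and 0.20 ± 0.42 in TB00 to TB49. In TA52 to TA63 they averaged -0.88 ± 0.61 and -1.12 ± 0.61. The part of even and odd plates in the level of any one plate or stretch was not tested. Plate medians of adjacent plates had an r of 0.00 and those of plates 2 apart one of 0.45 over the 36 plates, as a description.

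**Figure D5:**
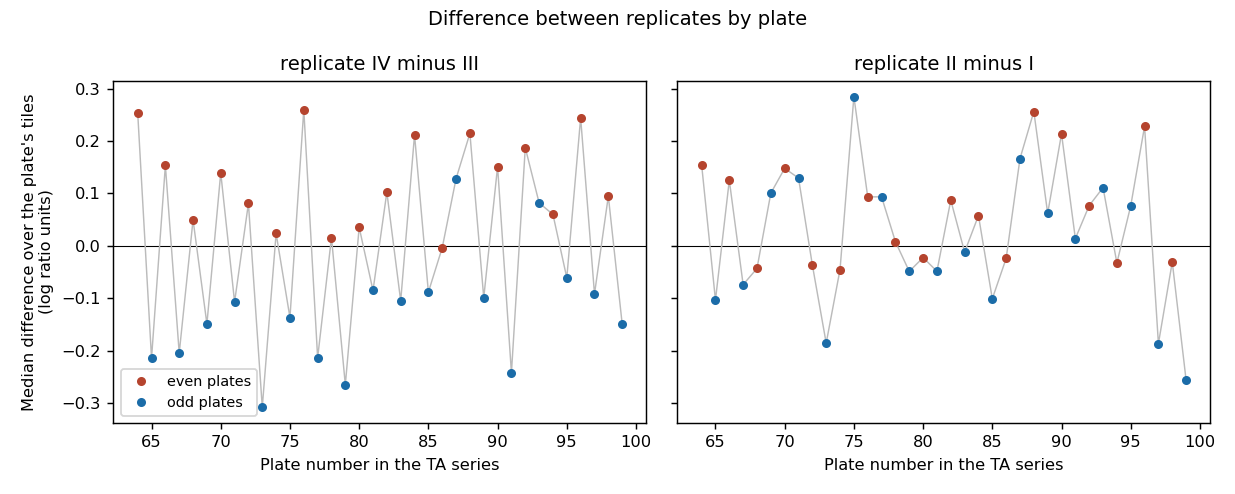
Median over each plate's tiles of the difference between replicates (log ratio units), IV minus III on the left and II minus I on the right, against plate number in the TA series, with even plates in red and odd plates in blue. For IV minus III, 17 of 18 even plates lie above 0 and 16 of 18 odd plates do not.

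Some single tiles, picked for the size of the difference, differed between the replicate pairs. TA72C01 had -0.49 and -0.66 in I and III and 1.29 and 1.08 in II and IV, TA96C11 had 1.15 and 0.85 in I and III and 2.36 and 2.75 in II and IV, and TA69A07 had -1.50, 1.18, 0.43 and 1.13 in I to IV, where I alone stood far below the others. In the other direction TA95H08 had 2.03 and 1.58 in I and III and -0.07 and 0.51 in II and IV, and TA79D03 had 0.17 and 0.55 in I and III and -0.62 and -1.03 in II and IV. For TA72C01, TA69A07 and TA79D03 the mean did not pass the threshold. Over the stretch the difference II and IV minus I and III had a median of 0.01, and its 5th and 95th percentiles were -0.60 and 0.81. It was also similar in adjacent tiles, with an r of 0.42.

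Tiles without a value were 126 of 3456 (3.65%), beside 2.14% on the array as a whole. They were scattered in 112 groups, the longest with 3 tiles, and 89 lay on even plates against 37 on odd plates. The even plates TA94 and TA68 alone held 19 and 17 of them. Even plates also had more blank tiles in TA01 to TA20 (33 against 14), TA52 to TA63 (7 against 4) and TB00 to TB49 (44 against 19). The 211 measured tiles of TA64 to TA99 beside a blank one had a median of -0.24, against 0.01 for the other 3119. By well position, medians ran from -0.17 to 0.17 over the 8 rows and from -0.18 to 0.09 over the 12 columns.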

How the data were processed

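The authors' deposited table holds processed log ratios of the 2 channels for 8 arrays. The sources used here do not give the software, background correction, normalization or log base, and scanner intensities were not used, so signal over background is unknown. Both arrays of each dye swap held identical values at all 21296 measured tiles, so each swap counted as 1 sample (n = 4). Blank tiles (465) and 39 features whose IDs lack the form of a tile ID were left out. Each replicate was centred on its median over all tiles. The test of each tile's mean used limma 3.58.1 under R 4.3.3 (lmFit, eBayes, 3 residual degrees of freedom). Benjamini-Hochberg adjustment was over all tiles at 0.05. The fit was also run on simulated tiles with independent replicates, which cannot show how it behaves with resembling pairs. Other values came from Python 3.11.15, numpy 2.4.6 and pandas 2.3.3. The number of arrays limits the precision: over the stretch, the standard error of a mean had a median of 0.11. Named by rule were the 5 highest and 5 lowest tiles (called, with the same sign in each replicate), the 2 longest runs per side with ties, the 3 highest and 3 lowest plates, the first and last plate, and the 3 tiles with the largest and smallest difference II and IV minus I and III. The members, rule and measures were chosen with earlier results of these data known. Other tiles named, the blocks of 12 plates, even and odd plates, steps and patches were chosen after seeing the values.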

Additional observations from a re-analysis of the deposited data

Results flagged for a closer look

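Among 28 sets of 4 replicate values checked, 1 held a value set apart from its group: tile TA91D01 had -0.13, 0.09 and -0.14 in I to III but -3.04 in IV, a gap of 0.927 of the whole range. By chance alone about 1 group in 20 is set apart. The mean of TA91D01, -0.80, did not pass the threshold (limma adjusted p = 0.16), and it was named for its difference between replicates, a choice that favours such values. Replicates I, II, III and IV had 0, 1, 1 and 1 tiles of the stretch more than 1.5 from the median of 3 others that lay within 0.5 of each other, and all of these were lower than the others.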

How the results depend on the processing

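The settings within replicate pairs, with pairs as a random block, with TA94 left out, with runs by the sign of the mean, and with adjacent tiles on 1 plate were chosen after seeing the data. Without centring, and with centring on the mode, the tiles above were 625 and 721 and those below 1864 and 1954, beside 20.5% and 22.6% above and 54.9% and 57.1% below over the array. The mean run above was 1.82 and 1.97 tiles and the mean run below 3.94 and 4.05, which turns the order of the main values, and the median of the stretch was -0.63 and -0.64. The difference from TA01 to TA20 was 0.083 between means, which reversed it, and -0.12 without TA64 and TA99. Without those plates the difference from TA52 to TA63 was 0.95. Between means the difference from TB00 to TB49 was -0.33. The r of adjacent tiles was 0.074 down columns and 0.53 with plate medians removed. The cause was not tested. Counts and run lengths otherwise stayed within 1.5 times the main value, and untested levels within the SD over replicates. With a replicate left out, tiles above numbered 1272 to 1310 and tiles below 1255 to 1281 (beside 40.8% to 41.2% and 40.8% to 41.3% over the array). Averaging the resembling pairs (I, III and II, IV) gave 1194 above and 1139 below (beside 37.9% and 38.2%). In that fit, and in the fit with centring on the mode, limma took 1 common spread for all tiles. The 10 named highest and lowest tiles kept direction and threshold under the 11 settings run. No paired analysis was possible because all arrays form 1 group.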
